A study of Rattus norvegicus with 20 samples.

Results

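The genes described here encode splicing factors and RNA-binding proteins of the rat choroid plexus. They are the 39 genes whose symbol in the gene lists supplied with the study begins with Hnrnp, Srsf, Sf3, Snrp, Rbm, Ddx or Luc7l, out of 32883 Ensembl genes with a value in every rat. Of these 32883 genes, 2616 had a symbol in the copies of those lists used here. The set holds 14 hnRNP genes, 5 SR protein genes, 7 Sm protein genes, 3 SF3b genes, 6 RBM genes and 4 DEAD-box helicase genes, and no Luc7l gene had a symbol. Membership leans to abundant genes, because the sheets of all genes are shortened to 1997 rows each, with lowest mean levels of 39.32 and 38.74 TPM. A total of 37 members came from those sheets, 32 from both and 5 from 1 alone. Rbm4, Rbm47 and Sf3b2 came only from the sheet of testosterone-treated obese and vehicle-injected lean rats. Hnrnpdl and Srsf6 came, among the sheets of all genes, only from that of the untreated rats. For these 5 genes the differences between injected and untreated rats are a description, because each sheet covers 1 of the 2 only. Rbm14 and Rbmxl1 entered only because they stand on the list of differentially expressed genes of untreated obese against untreated lean rats. Their values in that comparison, and in others that use these rats, are therefore given as a description.

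RNA came from the choroid plexus of the lateral and the fourth ventricle of 20 female Zucker rats, 16 weeks of age, with 1 library per rat. The lean group (+/fa, 6 rats) and the obese group (fa/fa, 6 rats) were not injected, whereas the lean control group (+/fa, 4 rats) received subcutaneous sesame oil vehicle and the obese + TT group (fa/fa, 4 rats) received subcutaneous testosterone propionate in sesame oil. The obese rats lack a working leptin receptor in the whole body and the lean rats are heterozygous carriers of the same allele. No obese rat received vehicle alone and no lean rat received testosterone. The untreated and the injected rats are called cohorts below, and between them cohort and injection cannot be told apart.

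Splicing removes introns from the primary transcript and joins the exons. The Sm proteins form the ring shared by most spliceosomal small nuclear RNPs, and the SF3b complex belongs to the U2 particle that recognises the branch point. SR proteins mostly favour the inclusion of exons to which they bind, hnRNPs often oppose them and also package and export RNA, and DEAD-box helicases rearrange RNA and RNA-protein complexes. The choroid plexus epithelium secretes cerebrospinal fluid and devotes much of its mRNA to the thyroid hormone carrier transthyretin, encoded by Ttr.

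Sequence before the transcription start was available for 37 of the 39 members, in 41 windows from RefSeq on build GRCr8, which is not the build of the expression values (Rnor_6.0). The 250 bases before the start had a median GC content of 59.2% in the members' windows and 51.2% in all 33469 windows, and a median of 20 against 5 CpG dinucleotides. The letters CCAAT on either strand stood in 58.5% of the members' windows and in 34.0% of all windows. The GC box GGGCGG stood in 48.8% against 30.5%, CCGGAAG (an ETS site) in 26.8% against 7.27%, TATAAA in 21.95% against 12.9%, and the E-box CACGTG in 12.2% against 5.59%. All windows were counted whatever the level of the gene, whereas the members lean to abundant genes. No windows of genes at similar levels were set beside them, so these shares cannot be read as particular to the members. The 100 bases before the start are printed for 4 SR protein genes, Srsf5 and Srsf3 because they had the smallest p-values when the obesity contrasts were compared, and Srsf1 and Srsf6 because they varied together from rat to rat. Rbm14 and Rbm3 follow because they had the largest differences between the cohorts in each direction. Capitals mark any of the 5 motifs on either strand, and a match is a description of the letters only.
Srsf5, chr6:106336656-106336755, plus strand: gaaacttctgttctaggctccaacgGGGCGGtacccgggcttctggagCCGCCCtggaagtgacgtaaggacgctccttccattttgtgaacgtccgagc
Srsf3, chr20:7093485-7093584, plus strand: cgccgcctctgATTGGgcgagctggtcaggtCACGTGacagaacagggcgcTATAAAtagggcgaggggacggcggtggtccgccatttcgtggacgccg
Srsf1, chr10:73336398-73336497, plus strand: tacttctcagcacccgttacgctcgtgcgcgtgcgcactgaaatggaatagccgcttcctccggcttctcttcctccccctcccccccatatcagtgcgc
Srsf6, chr3:172008972-172009071, plus strand: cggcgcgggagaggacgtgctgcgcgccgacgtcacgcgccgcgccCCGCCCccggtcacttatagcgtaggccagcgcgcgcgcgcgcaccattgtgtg
Rbm14, chr1:211535066-211535165, minus strand: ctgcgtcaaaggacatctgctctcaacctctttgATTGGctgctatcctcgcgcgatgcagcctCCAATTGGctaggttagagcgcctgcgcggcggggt
Rbm3, chrX:17020805-17020904, plus strand: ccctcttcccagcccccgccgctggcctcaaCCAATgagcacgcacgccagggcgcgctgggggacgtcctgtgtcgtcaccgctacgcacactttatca

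Levels are given in TPM, a relative measure with transcript length taken into account that adds up to a fixed total in each library, so they can be compared between genes. Together the 39 members made up 3704 to 4552 TPM of each library. Ttr alone took 25.8 to 39.3% of all TPM, and the lean rat 6 (39.01% Ttr) and the obese rat 10 (39.3% Ttr) had the lowest member sums, 3704 and 3720 TPM, while the other 18 rats lay between 4043 and 4552 TPM. The plot of summed member TPM against the share of Ttr shows these 2 rats apart from the rest. Because of the fixed total, a larger share of Ttr leaves less for every other gene. All 10 epithelial markers listed had a symbol and were among the transcripts measured, whereas no marker of neurons, oligodendrocytes, endothelium or ependyma had a symbol in the copies used here. In whole tissue, fewer cells of a type and less RNA per cell cannot be told apart.

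**Figure D1:**
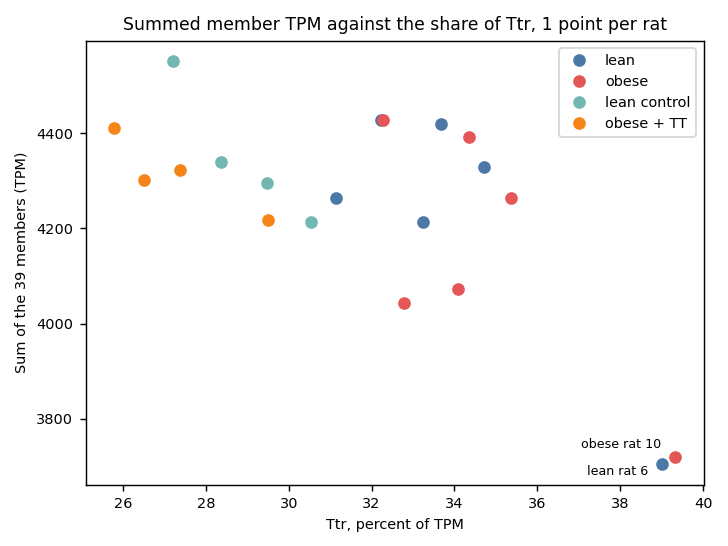
Summed TPM of the 39 members (vertical axis) against the share of all TPM taken by Ttr in percent (horizontal axis), 1 point per rat, coloured by group. Lean rat 6 and obese rat 10 lie at the right below, with 39.01% and 39.3% Ttr and 3704 and 3720 TPM, and the other 18 rats lie between 4043 and 4552 TPM.

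The most abundant member was Ddx5, a DEAD-box helicase that assists splicing and transcription, with a mean of 343 TPM over the 20 rats and a range of 266 to 402 TPM. Next came Hnrnpa2b1, an hnRNP that binds nuclear RNA and takes part in mRNA transport, at 305 TPM (261 to 356 TPM), and Snrpe, a component of the Sm ring, at 221 TPM (153 to 294 TPM). The ranges of these 3 genes overlapped. At the other end stood Rbm14, a coactivator and paraspeckle protein, at 7.53 TPM (2.39 to 17.3 TPM), the nuclear RNA-binding protein gene Rbmxl1 at 17.7 TPM (14.8 to 20.5 TPM) and the SR protein gene Srsf6 at 44.2 TPM (37.4 to 50.9 TPM). Of these lowest 3, the highest Rbm14 values reached into the range of Rbmxl1, and neither gene reached the range of Srsf6. Within a group the members varied about as much as genes of at least 10 TPM in general: the median coefficient of variation of the members was 9.25% in lean, 9.65% in obese, 7.80% in lean control and 6.02% in obese + TT rats, against 9.48%, 10.4%, 8.59% and 7.10% for those genes.

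Comparing the untreated groups addresses whether genetic obesity alone accompanies a difference in the RNA processing machinery of the choroid plexus. No member differed between the 6 obese and 6 lean rats in limma after Benjamini-Hochberg adjustment (15176 genes tested), and the background was 0% of all genes. The study's DESeq2 test on counts of these libraries did list differentially expressed genes, 5 of the members among them. The 0% therefore belongs to limma on TPM. At an unadjusted limma p under 0.05 there were 6 members, 3 higher and 3 lower in obese rats. That is 15.4% of the members beside 9.66% of all genes. Without Rbm14 and Rbmxl1 the count was 5 of 37, 13.5%. The log2 fold change was above 0 for 22 members and below 0 for 17, where 55.7% of all genes were above 0, and its median was 0.05 over the members and 0.02 over all genes. The members' median absolute log2 fold change of 0.07 was that of all genes with at least 10 TPM, 0.07.

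Among the SR proteins, Srsf5 (ENSRNOG00000005513), which regulates exon choice, was the only member whose groups did not overlap, beside 0.54% of all genes in which they did not. It measured 199, 220 and 239 TPM at its lowest, median and highest in the lean rats and 156, 177 and 197 TPM in the obese rats. Every obese rat lay below every lean rat, by a narrow gap between 197 and 199 TPM. The means were 178 ± 16.4 TPM in obese and 220.4 ± 16.4 TPM in lean rats (SD, n = 6 each; exact two-sided permutation p = 0.00216, the smallest these groups allow). On the log2 scale this was a change of -0.31 (standard error 0.07, 95% interval -0.46 to -0.16), and limma's adjusted p over all genes was 0.208, so Srsf5 did not pass. Srsf3, the smallest SR protein, lay the other way, with lean rats at 67.1 ± 5.22 TPM and obese rats at 76.4 ± 7.37 TPM (SD, n = 6 in each group) and a log2 fold change of 0.19 (limma adjusted p = 0.447). Srsf1, Srsf2 and Srsf6 had log2 fold changes between -0.06 and 0.07.

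In the hnRNP group 7 of 14 members were on each side of 0, and 1 had an unadjusted p under 0.05. This was Hnrnpdl, an hnRNP D-like protein that binds AU-rich RNA. Its lowest, median and highest values were 50.7, 67.2 and 73.1 TPM in lean rats and 37.8, 53.1 and 59.1 TPM in obese rats. The ranges overlapped between 50.7 and 59.1 TPM, with lean rat 6 the lowest of its group and obese rat 10 the lowest of all 12. Between the groups this gave -0.37 on the log2 scale (standard error 0.12, limma adjusted p = 0.334). The other 13 hnRNP genes had log2 fold changes between -0.07 and 0.18.

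Of the DEAD-box helicases, Ddx3x, which unwinds RNA in translation and nuclear export and is X-linked, measured 176, 205 and 226 TPM at its lowest, median and highest in lean rats and 155, 168 and 206 TPM in obese rats. A single obese rat, number 11, exceeded the lean median. Ddx3x thus differed by -0.24 on the log2 scale (standard error 0.08, limma adjusted p = 0.33). Ddx5 had a log2 fold change of -0.14, Ddx39b, the mRNA export helicase, 0.08, and Ddx17, a close relative of Ddx5, 0.18.

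Among the RBM genes, Rbm4, a regulator of exon choice and translation, measured 33.6, 38.5 and 43.1 TPM in lean rats and 36.0, 46.9 and 53.4 TPM in obese rats at its lowest, median and highest. In 5 of 6 obese rats it exceeded every lean rat, and obese rat 10 was the exception. Its log2 fold change was 0.27 (standard error 0.10, limma adjusted p = 0.403). Rbm14 was at 2.39, 2.67 and 3.86 TPM in lean rats and 3.02, 4.49 and 4.75 TPM in obese rats, so that the groups overlapped between 3.02 and 3.86 TPM. Its means of 2.85 ± 0.562 and 4.15 ± 0.701 TPM (SD, n = 6 each) correspond to a log2 fold change of 0.53 on the log2(TPM + 0.1) scale, and Rbmxl1 had 0.16. The 3 SF3b genes had log2 fold changes between -0.10 and 0.08, and the 7 Sm protein genes between -0.04 and 0.16. The names Ddx3x, Hnrnpdl and Srsf5 also stand on the study's list of differentially expressed genes of these 12 libraries, so their order here is not independent of that list.

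The second comparison asks the same of obesity together with testosterone, set against vehicle-injected lean rats. Again no member passed in limma with Benjamini-Hochberg adjustment over 15259 genes, with a background of 0%. The study's DESeq2 test on counts listed differentially expressed genes here too, but no member. An unadjusted limma p under 0.05 was found for 3 members, 1 higher and 2 lower in obese + TT rats, which is 7.69% beside 7.43% of all genes. No member had groups that did not overlap, beside 4.02% of all genes. The log2 fold change was above 0 for 18 members and below 0 for 21, beside 52.6% of all genes above 0, with a median of -0.01 over the members and 0.01 over all genes. With 4 rats a group, the exact permutation test cannot go below 0.0286.

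The Sm protein gene Snrpg (ENSRNOG00000032232) had the smallest p. Its values were 63.1, 86.8, 68.0 and 59.7 TPM in the lean control rats and 61.1, 46.2, 48.8 and 53.8 TPM in the obese + TT rats. The 3 lowest obese + TT values were below all lean control values, and lean control rat 14, at 86.8 TPM, stood well above the rest. For Snrpg the log2 fold change was -0.40 (standard error 0.12, limma adjusted p = 0.575). Without rat 14, a library with only 14968 genes above 0 where the others had 15609 to 16860, it was -0.28. Snrpe, another Sm ring component, was at 171, 221, 227 and 166 TPM in lean control rats and 153, 168, 173 and 169 TPM in obese + TT rats. Both higher lean control rats were outside the obese + TT range and both lower ones inside it, and the log2 fold change was -0.23 (standard error 0.11, limma adjusted p = 0.673). Of the 7 Sm protein genes 5 were below 0. Snrpe and Snrpg have near-identical processed copies in many mammalian genomes, so reads may have been split between loci.

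Srsf3 was at 71.4, 77.95, 81.0 and 80.7 TPM in lean control rats and 66.6, 62.9, 68.1 and 75.9 TPM in obese + TT rats. A single obese + TT rat, at 75.9 TPM, reached into the lean control range. Its log2 fold change of -0.19 (standard error 0.07, limma adjusted p = 0.609) had the opposite sign to the untreated comparison. Hnrnpf, an hnRNP that binds G-rich RNA, was at 113, 107, 115 and 119 TPM in lean control rats and 121, 119, 131 and 117 TPM in obese + TT rats, for a log2 fold change of 0.10 (standard error 0.06, limma adjusted p = 0.723).

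Rbm3 encodes a cold-inducible RNA-binding protein. It was at 93.7, 53.1, 62.5 and 52.1 TPM in lean control rats and 92.5, 77.3, 80.3 and 81.1 TPM in obese + TT rats. Lean control rat 13 had the highest value of all 8, and the other lean control rats lay below every obese + TT rat. Its log2 fold change was 0.38 (standard error 0.17, limma adjusted p = 0.668). Without rat 13 it was 0.57 (limma adjusted p = 0.0621), so the difference was smaller with this rat than without it.

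**Figure D2:**
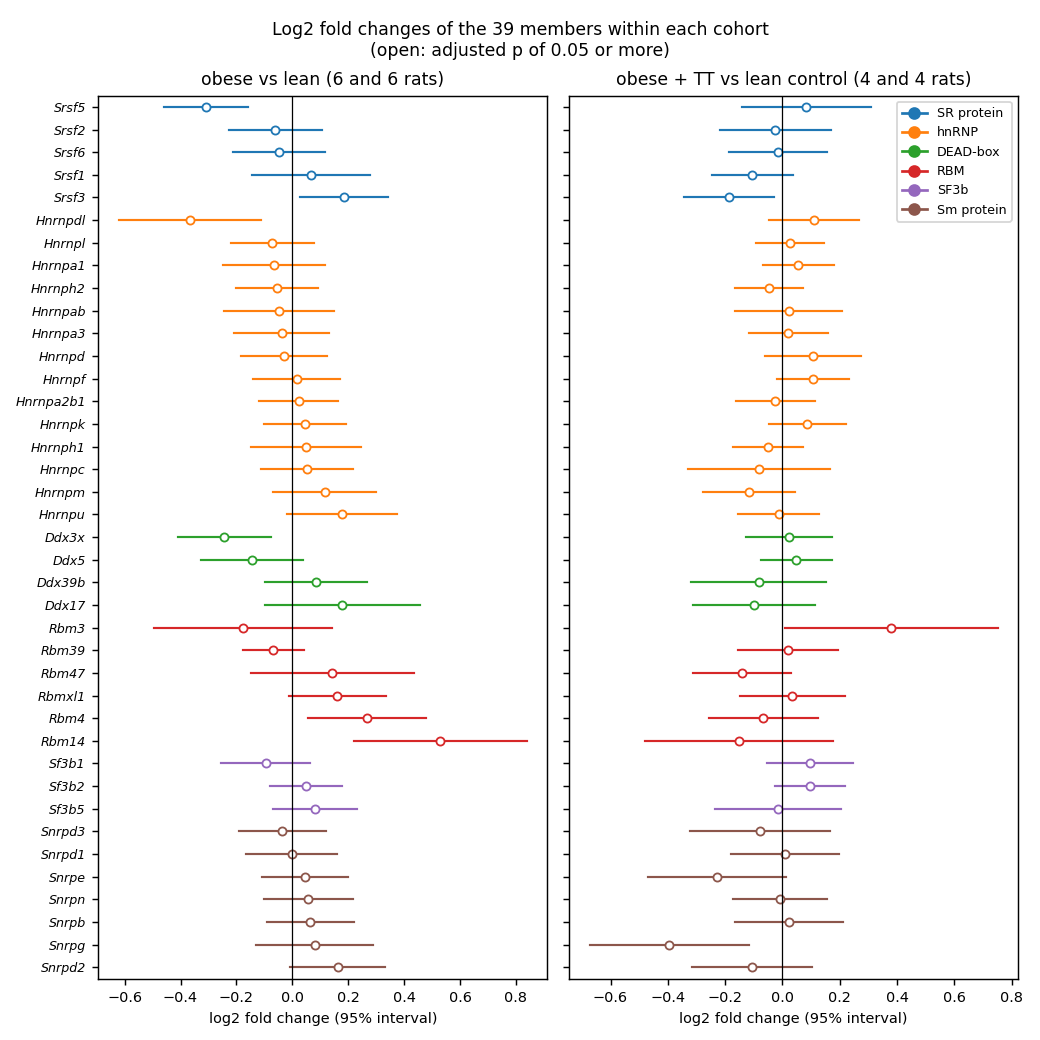
Log2 fold change of each of the 39 members with its 95% interval (horizontal axis) for obese against lean rats (left, 6 and 6) and obese + TT against lean control rats (right, 4 and 4), coloured by gene family. All points are open because no member passed, Srsf5 and Hnrnpdl lie furthest below 0 on the left at -0.31 and -0.37, and Snrpg lies furthest below 0 on the right at -0.40.

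The contrasts of the cohorts were then set against each other, which is possible without shared animals. Only 9 of 39 members, 23.1%, had a log2 fold change of the same sign in both, beside 49.0% of the 14521 genes tested in both. Of the 30 members with opposite signs, 17 were above 0 in the untreated and below 0 in the injected comparison, and 13 were the reverse. The members vary together from rat to rat, as described below, so they do not count as 39 separate observations, and this share was not tested. It lay between 20.5 and 33.3% under the alternative scalings and when single rats were left out, and it was 33.3% with TPM rescaled without Ttr, beside 47.8% of all genes.

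The difference of the contrasts itself, obese + TT minus lean control less obese minus lean, passed for no member in limma with Benjamini-Hochberg adjustment over 15406 genes, with a background of 0%. An unadjusted p under 0.05 was found for 10 members, 4 above and 6 below 0. That is 25.6% beside 8.36% of all genes, and 24.3% of the 37 members that did not enter through the list of differentially expressed genes. Srsf3 had a difference of -0.37 (standard error 0.11, limma adjusted p = 0.357) and Srsf5 one of 0.39 (standard error 0.12, limma adjusted p = 0.389), so these 2 SR protein genes lay on opposite sides. Rbm14 had a difference of -0.68, given as a description. The plot of levels in each rat shows these genes in all 4 groups.

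**Figure D3:**
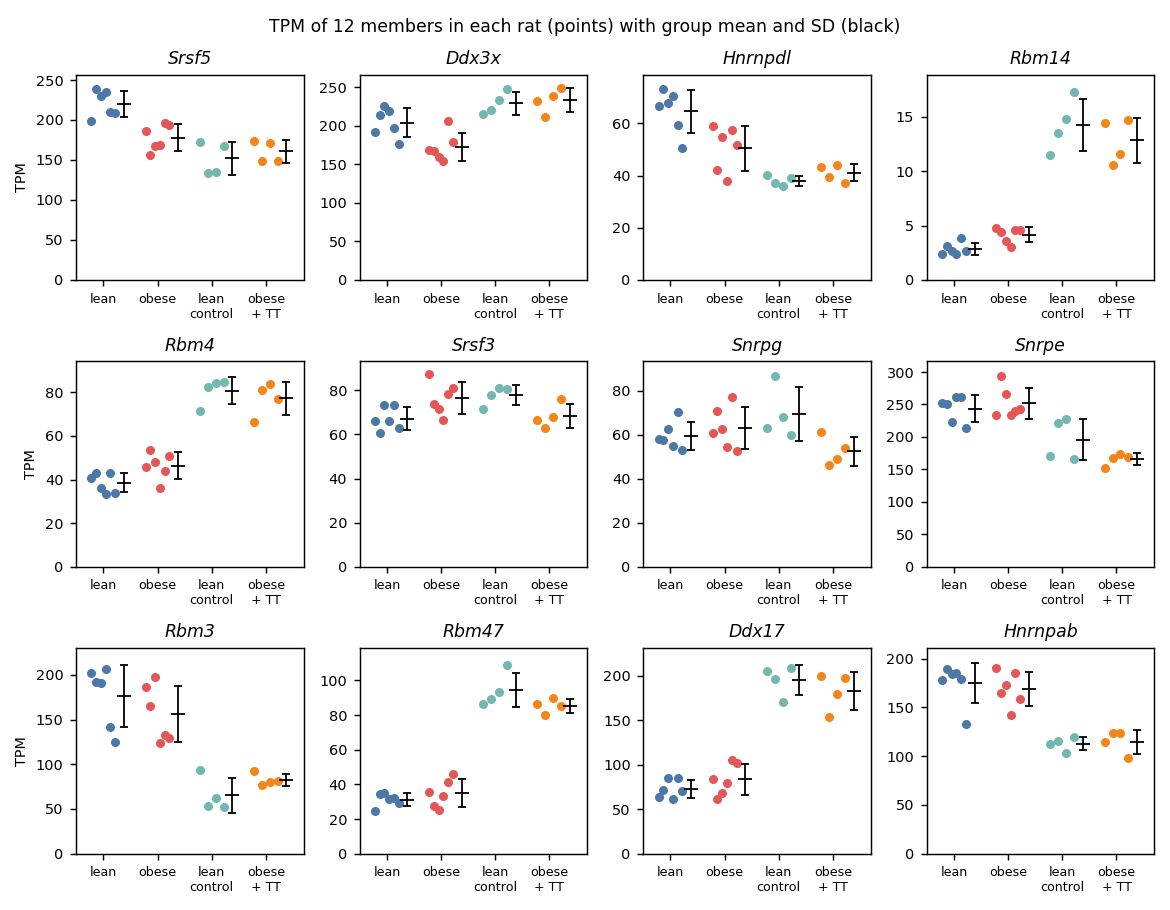
TPM (vertical axes, each from 0) of 12 members in every rat, as points by group, with the group mean and SD in black. Srsf5 separates lean (199 to 239 TPM) from obese (156 to 197 TPM) rats, while Rbm14, Rbm4, Rbm47 and Ddx17 are higher and Rbm3 and Hnrnpab lower in both injected groups than in both untreated groups.

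Much larger differences lay between the cohorts. Lean control rats against lean rats gave 22 called members in limma with Benjamini-Hochberg adjustment, 12 higher (30.8%, beside 41.7% of all 15326 genes) and 10 lower (25.6%, beside 16.5%). Obese + TT rats against obese rats gave 19 called members, 13 higher (33.3%, beside 41.7% of 15389 genes) and 6 lower (15.4%, beside 16.4%). The log2 fold change was above 0 for 25 of 39 members in the first (64.9% of all genes) and for 21 of 39 in the second (65.3% of all genes). Since the median of all genes was itself shifted, by 0.24 and 0.25 on the log2 scale, the split of calls depends on the scaling. With values centred on the median of genes of at least 10 TPM, 7 members were called higher and 20 lower in lean control against lean rats. Of all 15326 genes, 4439 were called higher and 4636 lower there. In obese + TT against obese rats 8 members were called higher and 23 lower, beside 4313 and 4499 of all 15389 genes. With FPKM the second comparison gave 7 members higher and 24 lower, beside 4237 and 4503 of all 15468 genes. All these counts include members whose differences between the cohorts are a description because of how they entered the set. On TPM, Rbm4, Rbm47, Sf3b2 and Rbm14 were among those called higher in both comparisons. Hnrnpdl was among those called lower in lean control against lean rats. Calls were not recounted without these genes, so the shares beside all genes are a description too.

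These comparisons do not share rats with each other. In both, 9 members (23.1%, beside 36.3% of all genes) were called higher: Ddx17, Ddx39b, Hnrnpm, Hnrnpu, Rbm4, Rbm14, Rbm47, Sf3b1 and Sf3b2. Of these, Rbm4, Rbm47 and Sf3b2 entered through the sheet of the injected rats alone, so their calls are a description. So are the calls of Rbm14, which entered through the study's list on the untreated rats. The share of 23.1% counts these genes and is a description too. A further 6 (15.4%, beside 12.7%) were called lower in both: Hnrnpab, Rbm3, Rbm39, Sf3b5, Snrpd3 and Snrpe. None of the 39 was called in opposite directions. Absence of overlap between the cohorts, given for single members below, is a description, because its share over all genes was not recorded. The 5 members with the largest called fold in each direction of either comparison kept their direction and their call in that comparison under every alternative scaling, filter and fit. Of the 9 and 6 members above, Sf3b1, Sf3b2 and Snrpe did not keep every call, as given below. Hnrnpm lost its call in obese + TT against obese rats with values centred on the median (limma adjusted p = 0.149) and with FPKM. Rbm39 lost its call in that comparison in 8 of 19 alternatives.

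Rbm14 (ENSRNOG00000045568) showed the largest ratio. It was at 11.5, 13.6, 14.8 and 17.3 TPM in lean control rats and 14.4, 10.6, 11.6 and 14.8 TPM in obese + TT rats, where no untreated rat exceeded 4.75 TPM. The log2 fold change was 2.29 in lean control against lean rats (standard error 0.15) and 1.61 in obese + TT against obese rats (standard error 0.15). Both are a description, because the untreated rats are those on which this gene was listed by the study.

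Rbm47, an epithelial RNA-binding protein that takes part in alternative splicing and RNA editing, was at 86.3, 89.3, 93.1 and 108.7 TPM in lean control rats and 86.2, 79.8, 90.03 and 85.3 TPM in obese + TT rats. Untreated rats reached at most 46.2 TPM, so the cohorts did not overlap. The log2 fold changes were 1.60 and 1.32 (standard errors 0.10 and 0.15). They are a description, as are those of Rbm4, because both genes entered through the sheet of the injected rats alone. Rbm4 was at 71.4, 82.4, 84.4 and 84.6 TPM in lean control rats and 66.5, 81.2, 84.0 and 77.0 TPM in obese + TT rats. All were above the untreated maximum of 53.4 TPM, with log2 fold changes of 1.07 and 0.74. With values centred on the median the second of these was 0.48.

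Ddx17 was the helicase with the largest difference. It was at 205, 197, 171 and 209 TPM in lean control rats and 200.4, 154, 180.0 and 197 TPM in obese + TT rats. All 8 exceeded the untreated maximum of 105 TPM, and the log2 fold changes were 1.43 and 1.15 (standard errors 0.10 and 0.15, limma adjusted p = 2.8e-07 and 3.95e-05). Ddx5, its close relative, had log2 fold changes of 0.16 and 0.35, and passed in the second comparison alone (limma adjusted p = 0.111 and 0.00269), but the difference of the 2, 0.19, did not pass (limma adjusted p = 0.697). With values centred on the median Ddx5 had -0.10 and 0.09 and passed in neither (limma adjusted p = 0.15 and 0.204). Hnrnpu, a nuclear scaffold protein that binds chromatin and RNA, was at 118, 112, 116 and 134 TPM in lean control rats and 122, 115, 122 and 117 TPM in obese + TT rats, where the highest untreated value was 98.3 TPM. Its log2 fold changes were 0.79 and 0.60 (limma adjusted p = 1.69e-06 and 0.000341), and the second was 0.34 with centred values.

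In the other direction, Rbm3 (ENSRNOG00000005387) was at 125, 192 and 206 TPM at its lowest, median and highest in lean rats and 124, 149 and 198 TPM in obese rats. The injected rats, whose 8 values are given above, reached at most 93.7 TPM, below every untreated rat. Rbm3 thus had a log2 fold change of -1.45 in lean control against lean rats (standard error 0.18, limma adjusted p = 2.72e-05) and -0.89 in obese + TT against obese rats (standard error 0.13, limma adjusted p = 0.000126).

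Hnrnpab, an hnRNP that binds single-stranded nucleic acids, was at 112, 116, 103.7 and 120.2 TPM in lean control rats and 115, 124, 123 and 97.7 TPM in obese + TT rats. The lowest untreated value was 134 TPM, again in lean rat 6, and the log2 fold changes were -0.62 and -0.56 (limma adjusted p = 0.000108 and 0.000278). Snrpd3 of the Sm ring was at 71.4, 102.9, 89.6 and 76.9 TPM in lean control rats and 72.1, 84.8, 82.7 and 80.4 TPM in obese + TT rats, with log2 fold changes of -0.56 and -0.60 (limma adjusted p = 0.000218 and 9.74e-05). All 8 lay below the untreated rats, but lean control rat 14, at 102.9 TPM, came close to obese rat 10 at 103.5 TPM.

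Sf3b5, a small subunit of SF3b, was at 109, 106, 106 and 114 TPM in lean control rats and 113, 114, 121 and 85.5 TPM in obese + TT rats. All 8 lay below the untreated minimum of 132 TPM, and the log2 fold changes were -0.50 and -0.59 (limma adjusted p = 7.8e-05 and 0.000214). The first was -0.76 with centred values. The other SF3b genes were above 0: Sf3b1, the subunit that contacts the branch point, had 0.33 and 0.53, and Sf3b2 had 0.33 and 0.38. With values centred on the median Sf3b1 had 0.07 and 0.26 and passed in the second comparison alone (limma adjusted p = 0.242 and 0.00122), and Sf3b2 had 0.07 and 0.12 and passed in neither (limma adjusted p = 0.167 and 0.0621). Snrpe had log2 fold changes of -0.32 and -0.60 (limma adjusted p = 0.0156 and 3.07e-05). The first was -0.59 with centred values, and it did not pass without lean control rat 13 or without lean control rat 16.

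Srsf5 and Hnrnpdl were called in lean control against lean rats alone. Srsf5 was at 173, 134, 135 and 167 TPM in lean control rats, below all lean rats, for a log2 fold change of -0.54 (standard error 0.09, limma adjusted p = 0.000204). In obese + TT rats it was at 174, 148, 172 and 148 TPM, within or just below the obese range, with -0.15 (limma adjusted p = 0.142). Hnrnpdl stands on the sheet of all genes of the untreated rats alone, so its differences between the cohorts are a description. It was at 40.1, 37.1, 35.8 and 38.9 TPM in lean control rats, below all lean rats (log2 fold change -0.76). In obese + TT rats it was at 43.4, 39.6, 44.0 and 37.2 TPM (-0.28). The test of this difference is the difference of the contrasts given above for Srsf5, which did not pass, and for Hnrnpdl it was 0.48 (limma adjusted p = 0.448). With values centred on the median Srsf5 passed in obese + TT against obese rats too, at -0.41 (limma adjusted p = 0.000189). Hnrnpdl was also called there, at -0.54.

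**Figure D4:**
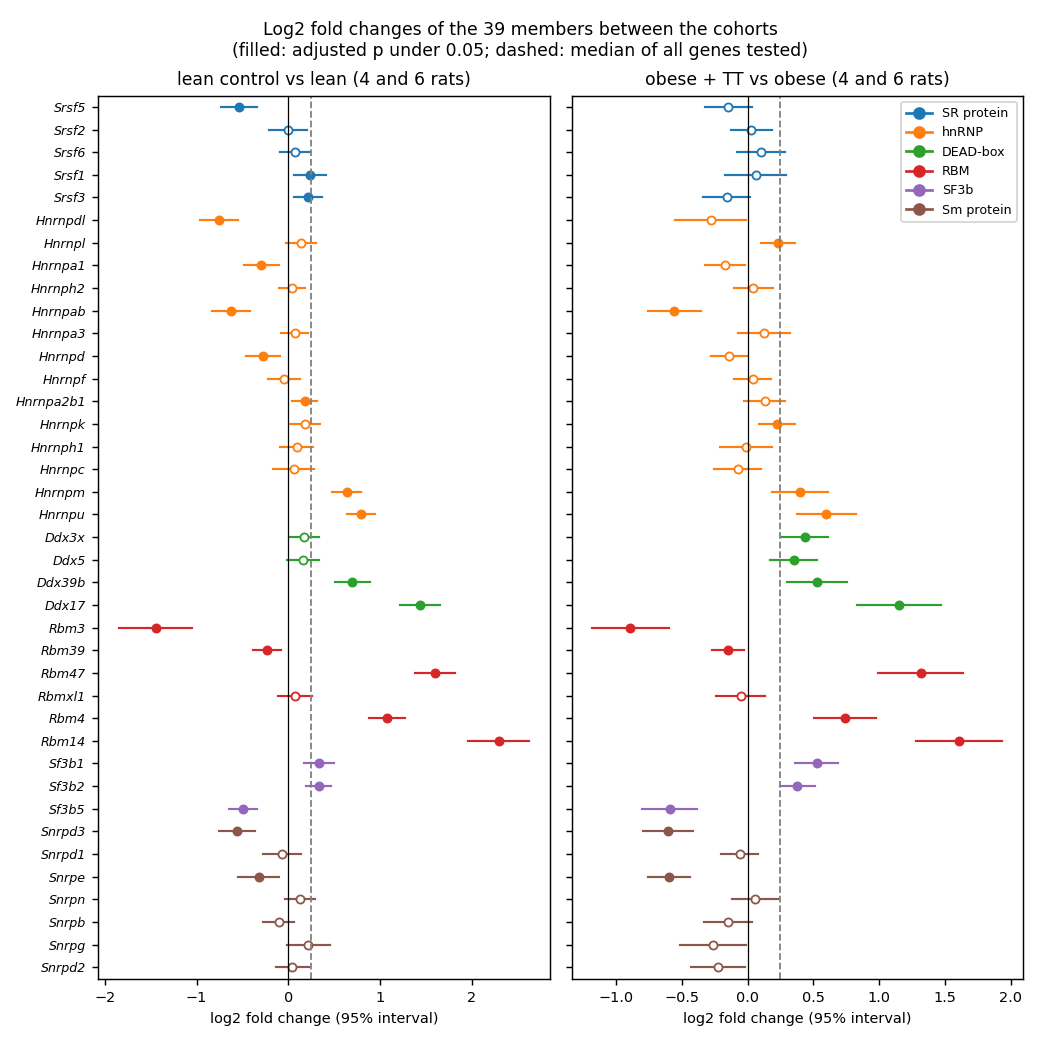
Log2 fold change of each of the 39 members with its 95% interval (horizontal axes, of different range) for lean control against lean rats (left) and obese + TT against obese rats (right), filled where the limma adjusted p is under 0.05, with the median of all genes tested as a dashed line. Rbm14, Rbm47, Ddx17 and Rbm4 lie furthest to the right in both panels and Rbm3 furthest to the left, at -1.45 and -0.89.

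Other measures moved with the cohorts. The stromal markers with a symbol (Col1a1 and Dcn, 2 of 4 listed) summed to 80.9 to 115 TPM in untreated and 7.35 to 15.3 TPM in injected rats. Cd74, the only one of 5 immune markers with a symbol, was at 134 to 218 TPM in untreated and 26.4 to 87.0 TPM in injected rats. The 4 of 10 heat shock genes with a symbol summed to 821 to 1087 TPM in untreated and 1301 to 1744 TPM in injected rats, and the share of Ttr was 31.2 to 39.3% and 25.8 to 30.5%. While Ttr was lower in every injected rat than in any untreated rat, 7 of the 10 epithelial markers were higher without overlap. The share of all genes without overlap between the cohorts was not recorded, so this count is a description. Among these markers Kl was at 346 to 489 TPM in untreated and 876 to 1041 TPM in injected rats, Kcnj13 at 458 to 872 and 1146 to 1388 TPM, and Otx2 at 7.85 to 85.9 and 107 to 200.1 TPM. The ratio of FPKM to TPM, which depends on the lengths of the transcripts detected, was 1.11 to 1.22 in untreated and 0.92 to 1.00 in injected rats. The part of each in the differences of the members was not tested.

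Covariation was examined on deviations of log2(TPM + 0.1) from the group mean, so that differences between groups play no role. Over the 741 pairs of members the median Pearson r across 20 rats was 0.37 and 85.2% of pairs were above 0. Over pairs of the 6472 genes with at least 10 TPM the median was 0.24 and 77.4% were above 0. After 100000 permutations of rats within groups and Benjamini-Hochberg adjustment over 741 pairs, 126 pairs had an adjusted p under 0.05, 125 of them positive.

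This count rested heavily on Ttr and on 2 rats. With TPM rescaled to a total without Ttr, 21 pairs were below 0.05 and the median r was 0.15 (all genes 0.08). Without lean rat 6 there were 11 pairs, and without obese rat 10 there were 55. Without obese rat 8, obese rat 11 or lean control rat 16 there were 79, 78 and 74, and leaving out any other single rat gave between 89 and 128. Without both rats of high Ttr there were 2 pairs, with a median r of 0.17 beside 0.14 for all genes. In the untreated cohort alone 36 pairs passed, and in the injected cohort 0, where the 576 orders of the rats cannot give a p below 0.00174. Every member had a negative r with the share of Ttr, with a median of -0.53, from -0.79 for Hnrnpf to -0.00 for Hnrnpa2b1. With the ratio of FPKM to TPM the median r was -0.64, from -0.87 for Ddx5 to 0.29 for Snrpe, and 36 members were below 0. The part of this ratio in the covariation was not tested.

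By family, described here with no test between families, the median r was 0.62 between DEAD-box genes (6 pairs), 0.57 between SR protein genes (10 pairs), 0.55 between hnRNP genes (91 pairs) and 0.56 between DEAD-box and hnRNP genes (56 pairs). It was 0.22 between RBM genes (15 pairs) and 0.14 between SF3b genes (3 pairs). Sm protein genes had a median r of 0.34 with each other (21 pairs), 0.15 with hnRNP genes, 0.11 with SR protein genes and 0.01 with DEAD-box genes. Without Ttr in the total these last 3 values were -0.06, -0.16 and -0.23, while the first 4 stayed between 0.38 and 0.58. The heat maps of r show the Sm genes Snrpd2, Snrpd3, Snrpe and Snrpg, with Rbm3 and Sf3b5, apart from a large block of hnRNP, SR and DEAD-box genes.

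**Figure D5:**
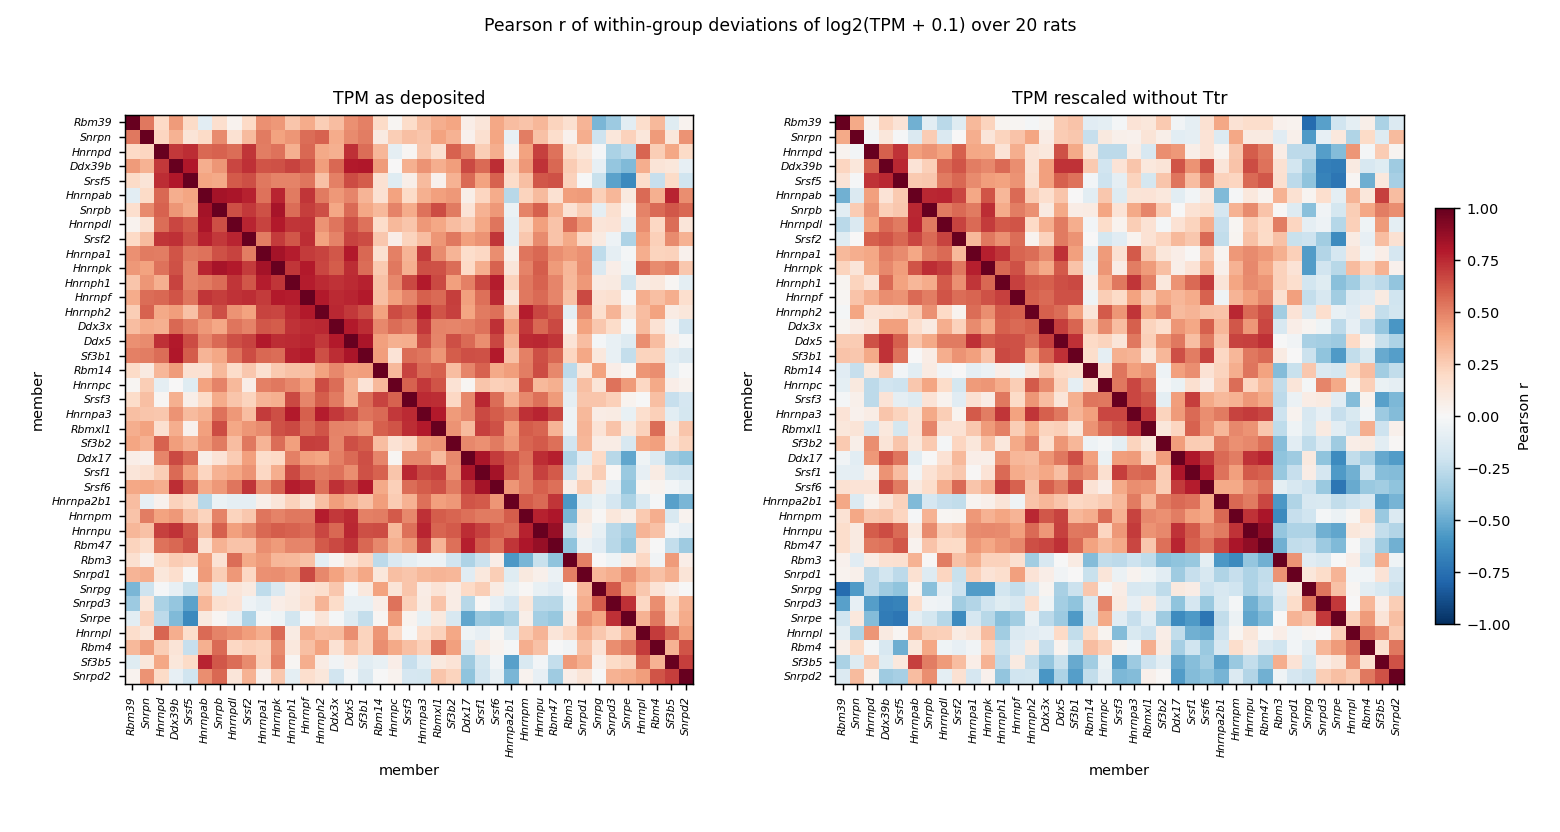
Pearson r (colour scale from -1 to 1) between the 39 members across 20 rats, computed on within-group deviations of log2(TPM + 0.1), with TPM as deposited (left) and rescaled without Ttr (right) in the same order of genes. The large red block on the left holds most hnRNP, SR and DEAD-box genes, and it is paler on the right, where the median r over 741 pairs is 0.15 instead of 0.37.

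The 5 pairs with the highest and the 3 with the lowest r are named here, so their size reflects that choice. Hnrnpu and Rbm47 had the highest r, 0.87 (permutation p = 8e-05, adjusted over pairs 0.0153; Spearman's rho 0.85, permutation p = 0.00022, adjusted 0.0155). It was 0.87 in the untreated and 0.89 in the injected rats, 0.89 without Ttr in the total, 0.91 without the 2 rats of high Ttr and 0.76 without the 2 rats farthest from the median. Srsf1 and Srsf6, whose start regions are printed above, had an r of 0.83 (permutation p = 4e-05, adjusted 0.0153; rho 0.83, permutation p = 7e-05, adjusted 0.0111), with 0.86 and 0.85 in the cohorts and 0.73 without the 2 farthest rats. For both pairs r stayed high within each cohort and without the 2 rats of high Ttr, where it was 0.86 for Srsf1 and Srsf6. This describes the size of r only. No pair passed in the injected cohort, and no p-values are given for these pairs in the subsets. These genes also varied with the ratio of FPKM to TPM within groups. Their r with it was -0.85 for Hnrnpu, -0.76 for Rbm47, -0.71 for Srsf1 and -0.84 for Srsf6, and its part in both pairs was not tested.

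Hnrnpa1 and Hnrnpk had an r of 0.83 (permutation p = 0.00016, adjusted 0.0153; rho 0.83, permutation p = 8e-05, adjusted 0.0111), with 0.87 and 0.66 in the cohorts, 0.72 without the 2 farthest rats and 0.64 without the 2 rats of high Ttr. Hnrnpab and Snrpb had an r of 0.83 (permutation p = 0.0003, adjusted 0.0153; rho 0.79, permutation p = 0.00047, adjusted 0.0187), with 0.85 and 0.81 in the cohorts, 0.68 without the 2 farthest rats and 0.66 without the 2 rats of high Ttr. Hnrnpk and Snrpb had an r of 0.83 (permutation p = 0.00031, adjusted 0.0153; rho 0.76, permutation p = 0.00049, adjusted 0.0187), with 0.84 and 0.86 in the cohorts, 0.68 without the 2 farthest rats and 0.65 without the 2 rats of high Ttr. These 3 pairs were weaker without the 2 rats of high Ttr but stayed at or above 0.64.

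At the low end, Snrpe and Srsf5 had an r of -0.63 (permutation p = 0.0308, adjusted 0.105; rho -0.63, permutation p = 0.034, adjusted 0.123), with -0.39 in untreated and -0.85 in injected rats and -0.53 without the 2 farthest rats. Hnrnpa2b1 had an r of -0.58 with Rbm3 (permutation p = 0.0238, adjusted 0.09; rho -0.54, permutation p = 0.0357, adjusted 0.126), with -0.67 and -0.38 in the cohorts and -0.50 without the 2 farthest rats. Its r with Sf3b5 was -0.54 (permutation p = 0.00623, adjusted 0.0443; rho -0.55, permutation p = 0.0127, adjusted 0.0766), with -0.63 and -0.45 in the cohorts and -0.55 without the 2 farthest rats. Of the 3, the last alone passed after adjustment, and by Pearson's r only.

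The genes most like the rest of the set were Hnrnpu, Ddx5 and Hnrnpf, with a median r of 0.57, 0.57 and 0.56 with the other 38 members across the 20 rats. The least like were Snrpe, Snrpd2 and Rbm3, with -0.02, 0.04 and 0.07. With TPM rescaled without Ttr the first 3 had 0.46, 0.41 and 0.38 and the last 3 had -0.21, -0.17 and -0.07.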

How the data were processed

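Paired-end NovaSeq reads of choroid plexus RNA from 20 rats were mapped by the authors with STAR 2.7.9a to Rnor_6.0 with Ensembl annotation, and processed with tools that include RSEM 1.3.3 per the labels. The authors deposited TPM and FPKM per gene and rat. DESeq2 was run by the authors on counts, which were not used here, so the depth per rat and counting errors are unknown.

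The genes with a symbol come from the supplementary lists of the study, and the members and gene lists were chosen with earlier results of these data known. Genes averaging 0.1 TPM or more across the rats of a comparison were compared as log2(TPM + 0.1) with limma 3.58.1 in R 4.3.3 (trend on, robust option off) on the groups of that comparison, with Benjamini-Hochberg adjustment over all genes tested and a call at 0.05. The pseudocount shrinks the log2 fold changes of weakly expressed genes. The difference of contrasts used all 20 libraries. Single members were also tested by exact two-sided permutation of rats. Rats are the replicates, 1 library each. Correlations used within-group deviations and 100000 permutations within groups, or all 576 orders in the injected cohort. The scripts were tested on simulated data.

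Members named with values are, within each cohort, those with groups that do not overlap and the 5 with the smallest p, the 3 with the smallest p for the difference of contrasts, the 5 largest called folds each way across cohorts, the highest and lowest 3 by level, and the 5 highest and 3 lowest pairs by r. Some others are named where they belong to the same family, after their values were seen. Alternatives were a pseudocount of 1, no minimum, a minimum of 1 TPM, no trend, the robust option, TPM rescaled without Ttr, centring on the median of genes of at least 10 TPM, FPKM, a fit of all 20 libraries or with library weights, and each rat left out. Promoter windows are from RefSeq (GRCr8).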

Additional observations from a re-analysis of the deposited data

Results flagged for a closer look

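Each of the 39 members was checked in each of the 4 groups for a rat far from the others by Dixon's test at the 95% level. This found 6 of 156 groups with a far rat, where chance alone gives about 7.8. In lean rat 6, the lean library with the largest share of Ttr, Hnrnpab was at 133.5 TPM (other lean rats 178 to 190.0 TPM), Snrpb at 73.74 TPM (others 88.2 to 94.4 TPM) and Srsf2 at 75.72 TPM (others 90.03 to 97.9 TPM). In the lean control group, Rbm4 was low in rat 13 at 71.4 TPM (others 82.4 to 84.6 TPM), Snrpd1 was high in rat 15 at 93.58 TPM (others 72.9 to 76.3 TPM) and Snrpb was high in rat 16 at 92.06 TPM (others 77.4 to 79.5 TPM).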

How the results depend on the processing

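The 33 results chosen by the smallest p, or across cohorts by the largest called fold, had 657 alternative values. All of these kept their direction and their side of the threshold. Other results across cohorts for named members did not. Among members with a fold change or call across cohorts given above, calls changed for Sf3b1, Sf3b2 and Snrpe in lean control against lean rats. In obese + TT against obese rats they changed for Ddx5, Hnrnpm, Rbm39, Sf3b2, Srsf5 and Hnrnpdl. Ddx5 also changed sign in lean control against lean rats. Calls of further members changed too. Examples are Hnrnpa2b1 (8 of 19 alternatives) and Srsf3 (5) in lean control against lean rats, and Snrpg (6) in obese + TT against obese rats. No member passed within a cohort, or for the difference of the contrasts, under any alternative or with any rat left out. Centring and FPKM each gave 31 called members in obese + TT against obese rats instead of 19. Over all genes they gave 8812 and 8740 calls instead of 8941. In lean control against lean rats the alternatives gave 21 to 27 called members, beside 7883 to 9129 of all genes. Leaving out 1 rat gave 18 to 24 members in either comparison across cohorts, beside 8206 to 8822 and 8244 to 8908 of all genes. These counts of called members include genes whose calls across cohorts are a description, as given above. The number of covarying pairs was 126 with all rats, 21 with TPM rescaled without Ttr, 36 in the untreated cohort, 0 in the injected cohort, 2 without the 2 rats of highest Ttr (chosen after seeing the data), and 11 to 128 with 1 rat left out. The cause of these changes was not tested. Calls over all genes also moved with single rats, up to 25 genes in obese + TT against lean control rats without lean control rat 13. No paired analysis was possible because the groups share no replicate numbers. Depth is unknown, only 2616 genes have a symbol, and near-identical copies of Hnrnpa1, Hnrnpa3, Rbmxl1, Snrpe and Snrpg may share reads.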

Other observations

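Other genes of RNA processing were counted from a list of 80 that holds no member, of which 32 had a symbol and all 32 were tested. None was called within a cohort in limma with Benjamini-Hochberg adjustment. In obese against lean rats 3 were higher and 1 lower at an unadjusted p under 0.05, beside 9.66% of all genes in either direction. Cirbp, a cold-inducible RNA-binding protein related to Rbm3, averaged 46.8 ± 9.78 TPM in the lean group and 32.3 ± 4.02 TPM in the obese group (SD, n = 6 each; log2 fold change -0.52, limma adjusted p = 0.225). Cirbp also stands on the study's list for these libraries, so its place here is not independent of that list. Sfpq, a paraspeckle protein, was at 14.5 ± 1.34 and 20.8 ± 4.60 TPM, and Fubp1, a single-strand binding protein, at 15.6 ± 2.27 and 19.3 ± 2.33 TPM. These were 2 of the 3 higher genes, and both are listed here only because the study called them on these libraries.

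In obese + TT against lean control rats 3 of the 32 were higher and 4 lower at that level, beside 7.43% of all genes. The poly(A)-binding protein gene Pabpn1 was at 65.2 to 77.0 TPM in lean control and 59.9 to 63.0 TPM in obese + TT rats, without overlap (log2 fold change -0.23, limma adjusted p = 0.51), and it stands on the study's list for these libraries. The splicing cofactor Snw1 had a log2 fold change of 0.20 and Tardbp, a binder of GU-rich RNA, one of -0.25 (limma adjusted p = 0.594 for both). Across cohorts 27 of 32 were called in lean control against lean rats, 18 higher and 9 lower, and 23 of 32 in obese + TT against obese rats, 17 higher and 6 lower. Of all genes 41.7% were called higher in each comparison, and 16.5% and 16.4% were called lower. These counts were not recomputed under the other scalings, on which the split of the members' calls depended. They include Sfpq and Fubp1, called higher in both comparisons, whose calls are a description because of how they were listed. Cirbp was lower in the injected rats, as Rbm3 was, with log2 fold changes of -1.32 and -0.37 (limma adjusted p = 0.000131 and 0.0213). The difference between the obesity contrasts of Cirbp was 0.95 (limma adjusted p = 0.325) and that of Rbm3 0.56 (limma adjusted p = 0.561).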
